A study of Rattus norvegicus with 20 samples.

Results

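Neuropeptide Y (Npy) and galanin (Gal) were followed across every array of a study of rat dorsal root ganglia after nerve injury. All probe sets that the platform's probe table annotates to either gene alone were taken, which gave 1 probe set for Npy (M15880_at) and 1 for Gal (J03624_at). They are 2 of 4736 genes that have a probe set of their own, and the array holds 8740 probe sets that are not controls. Ganglia were taken from the side of the operated limb, and total RNA was hybridised to 20 arrays in 8 groups. Chronic constriction injury (CCI), in which ligatures are tied loosely around the sciatic nerve, was sampled at 14 days (3 arrays) and at 21 days (3 arrays). The Seltzer group was sampled at 14 days (2 arrays), 21 days (3 arrays) and 50 days (2 arrays), and sham-operated animals at 14 days (2 arrays), 21 days (3 arrays) and 50 days (2 arrays). The Seltzer model is known as a tight ligation of part of the sciatic nerve, whereas the sample descriptions call this surgery a sciatic nerve transection. Strain, sex, age and the number of animals or ganglia behind an array are not stated in the sources used here. Nothing says that replicates came from separate animals, so every p-value measures only the spread between these arrays, which may be technical.

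Both genes encode small peptides that are cut from a larger precursor, amidated at the carboxyl end, stored in dense-core vesicles and released to act on G protein-coupled receptors. In an uninjured rat ganglion few sensory neurons contain either peptide. Injury to the peripheral axon is known to switch on neuropeptide Y mainly in large neurons with myelinated axons, and galanin mainly in small and medium neurons. Released in the spinal cord, both peptides are best known for dampening or modulating pain signals.

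The sequence just upstream of each gene is shown because the 2 genes share a large response to injury. The RefSeq promoter window (build GRCr8) is given 5′ to 3′ on the gene's own strand, covering the 250 bases before the annotated start, at chr4:80211861-80212110 (plus strand) for Npy and chr1:210084573-210084822 (minus strand) for Gal. Capitals mark the only match to any of the motifs searched.
Npy: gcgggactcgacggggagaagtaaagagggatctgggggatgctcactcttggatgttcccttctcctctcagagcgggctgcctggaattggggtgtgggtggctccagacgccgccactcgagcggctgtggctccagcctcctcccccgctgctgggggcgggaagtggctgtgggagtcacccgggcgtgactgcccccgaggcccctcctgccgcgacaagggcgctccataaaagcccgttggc
Gal: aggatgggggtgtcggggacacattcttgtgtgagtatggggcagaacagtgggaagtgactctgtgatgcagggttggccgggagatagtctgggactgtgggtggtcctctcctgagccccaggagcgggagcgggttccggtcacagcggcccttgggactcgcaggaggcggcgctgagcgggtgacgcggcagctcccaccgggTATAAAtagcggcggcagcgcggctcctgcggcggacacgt
Both windows were rich in G and C, at 67.6% for Npy and 66.0% for Gal, above 88.5% and 86.2% of all promoter windows of the table. The motifs searched on both strands were TTCNNNGAA (STAT factors), TGANTCA (AP-1), TGACGTCA (the cyclic AMP response element) and TATAAA, the core of the TATA box. The Gal window held 1 TATAAA match, which began 41 bases before the start, and the Npy window held none. None of the other motifs was found in either window. Among 33469 promoter windows of this length, 12.9% held TATAAA, 7.67% TTCNNNGAA, 6.34% TGANTCA and 1.59% TGACGTCA.

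Values were linear intensities, 28.9% of them below 0. The background of an array was set from its negative values, at the size that 95% of them did not exceed, and a probe set over it was called above background. This level lay between 169 and 499 on 18 arrays, whereas Seltzer 50-day replicates 1 and 2 had 765 and 597. Those 2 arrays also stood apart in RNA quality, with ratios of the 3′ to the 5′ actin control of 9.88 and 3.94, against at most 2.40 on the others. The replicate 1 arrays of the 21-day groups stood apart as well: they received array weights of 0.128 (CCI), 0.315 (Seltzer) and 0.196 (sham), where a lower weight marks an array that deviates more from its group. Of 16 sensory neuron markers, 12 were measured, and 11 or 12 of them were above background on at least 1 array of every group but Seltzer 50 days, where 7 were. None of the 8 measured markers of sympathetic neurons, which also make neuropeptide Y, was above background on any array, and their summed intensity lay between 111 and 356. In whole ganglia, a change in the number of cells that make a peptide and a change in the RNA per cell cannot be told apart.

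Npy was among the brightest probe sets after CCI and below background in sham ganglia. It read 2826, 2563 and 2811 on the CCI 14-day arrays and 1999, 2636 and 2067 on the CCI 21-day arrays. It read 805 and 657 on the Seltzer arrays at 14 days, 2467, 1171 and 995 at 21 days, and 231 and 201 at 50 days. Sham arrays read 46.1 and 24.9 at 14 days, 61.4, 2.05 and -18.2 at 21 days, and -19.6 and 23.0 at 50 days. All 11 CCI and Seltzer arrays of 14 and 21 days were above background, and no sham array and neither Seltzer 50-day array was. Within its array, Npy stood at percentile 97.8 to 98.7 of all probe sets after CCI, 92.5 to 93.7 in the Seltzer group at 14 days and 94.9 to 98.1 at 21 days, against at most 52.6 in sham. By group mean the order was CCI 14 days, CCI 21 days, Seltzer 21 days, Seltzer 14 days, Seltzer 50 days, then sham at 14, 21 and 50 days. The ranges of CCI 14 and 21 days overlapped, as did those of CCI 21 days and Seltzer 21 days and those of neighbouring sham groups, while the other neighbours were separate.

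Gal was likewise bright after CCI and below background in sham ganglia. It read 1373, 1508 and 1373 on the CCI 14-day arrays and 1391, 1293 and 1237 on the CCI 21-day arrays. It read 591 and 848 on the Seltzer arrays at 14 days, 497, 547 and 446 at 21 days, and 197 and 172 at 50 days. Sham arrays read 103 and 34.9 at 14 days, -11.3, 58.9 and 81.1 at 21 days, and 27.6 and 85.5 at 50 days. The 6 CCI arrays lay close together across both days, and every one of them was above all 5 Seltzer arrays of 14 and 21 days. As for Npy, the 11 CCI and Seltzer arrays of 14 and 21 days were above background and the other 9 arrays were not. Gal stood at percentile 95.8 to 96.7 after CCI, 91.1 to 94.2 in the Seltzer group at 14 days and 88.1 to 90.6 at 21 days, against 26.8 to 63.9 in sham. The order of means was CCI 14 days, CCI 21 days, Seltzer 14, 21 and 50 days, then sham at 14, 50 and 21 days. The ranges of the 2 CCI groups overlapped and those of neighbouring sham groups overlapped, and all other neighbours were separate.

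**Figure D1:**
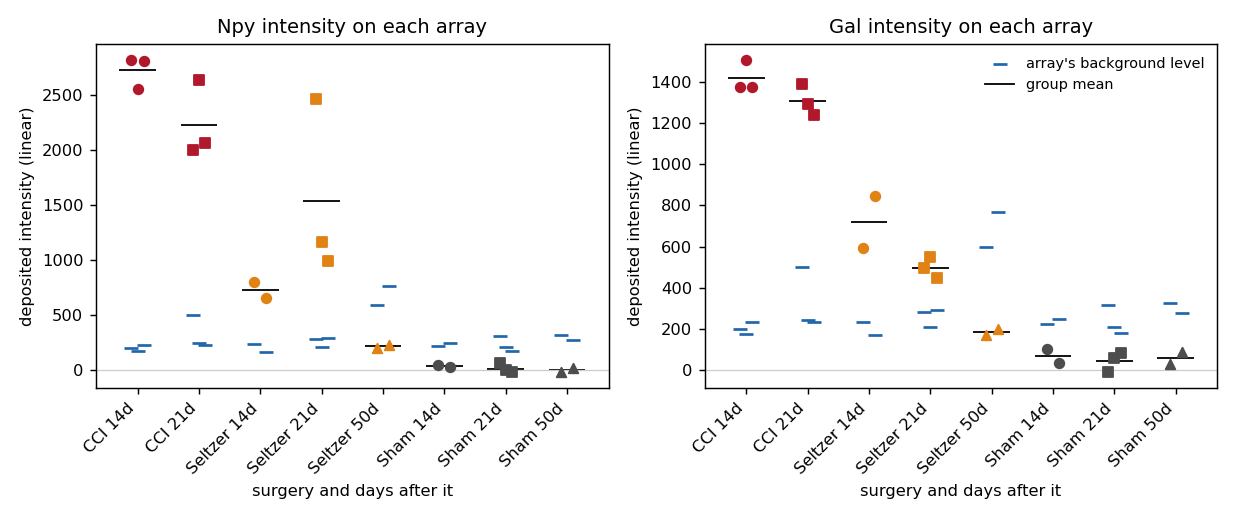
Deposited intensity (linear scale) of Npy (left) and Gal (right) on each of 20 arrays, by surgery and days after it; points are arrays, black lines group means, and blue dashes each array's background level. The CCI and Seltzer arrays of 14 and 21 days lie above their background level for both peptides, and the sham and Seltzer 50-day arrays lie below it.

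After CCI, both peptides were higher than in sham ganglia of the same day. At 14 days Npy averaged 2733 ± 148 after CCI (SD, n = 3) and 35.5 ± 15 in sham (SD, n = 2), and at 21 days 2234 ± 350 after CCI and 15.1 ± 41.4 in sham (SD, n = 3 each). Because sham was below background, only a lower bound of the fold can be given: at least 11.6-fold at 14 days and at least 9.78-fold at 21 days. These bounds compare the geometric mean of the brighter group with the background level of each sham array. On the log2(intensity + 16) scale, with values below 0 set to 0, the difference was 5.77 (SE 0.59; limma adjusted p = 8.06e-05) at 14 days and 6.31 (SE 0.53; limma adjusted p = 4.45e-05) at 21 days. The size of these differences is set by how values below background are treated: with a floor at each array's background level they were 3.45 and 3.20, and with a pseudocount of 1 the 21-day difference was 8.59.

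Gal averaged 1418 ± 77.6 after CCI (SD, n = 3) and 68.9 ± 48.1 in sham (SD, n = 2) at 14 days, and 1307 ± 78.3 after CCI and 42.9 ± 48.3 in sham (SD, n = 3 each) at 21 days. The fold was at least 6.02 at 14 days and at least 5.76 at 21 days. Its log2 difference was 4.20 (SE 0.61; limma adjusted p = 0.00163) at 14 days and 4.76 (SE 0.55; limma adjusted p = 0.000479) at 21 days, or 2.51 and 2.44 with the floor at background. Of all probe sets, 1.35% were called higher after CCI at 14 days and 0.538% at 21 days. With only the compared groups in the limma fit, neither peptide passed at 21 days (adjusted p = 0.11 for Npy and 0.247 for Gal), and a pseudocount of 1 ended the Gal call at 14 days (adjusted p = 0.133).

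Without the replicate 1 arrays of 21 days, the log2 difference for CCI minus sham at that day was 7.11 for Npy (limma adjusted p = 7.1e-06) and 3.91 for Gal (limma adjusted p = 0.00132), and for Seltzer minus sham 6.01 for Npy (limma adjusted p = 4.8e-05) and 2.58 for Gal (limma adjusted p = 0.0372).

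Markers of other cells moved with CCI on both days, and some of sensory neurons at 14 days. The summed intensity of 6 macrophage markers was 4043 to 4990 after CCI and 1891 to 2278 in sham at 14 days, and 3444 to 4290 after CCI and 1225 to 1726 in sham at 21 days. Of the 6, Cd74 was called higher at 14 days, and Cd74 and Lyz2 at 21 days, beside 1.35% and 0.538% of all probe sets. Cd14 averaged 201 after CCI and 273 in sham at 14 days (log2 difference -0.42), and was not called. Csf1r, Itgam and Aif1 were above background on no array. The sum of 5 skeletal muscle markers was 8418 to 9768 after CCI and 3815 to 4474 in sham at 14 days, and 873 to 1717 after CCI and 4136 to 4452 in sham at 21 days. Among the 12 measured sensory neuron markers, the sodium channels Scn10a (log2 difference -1.47, limma adjusted p = 0.00671) and Scn11a (log2 difference -1.44, limma adjusted p = 0.00231) were lower after CCI at 14 days, beside 1.43% of all probe sets. None of the 12 was called higher. Uchl1 (0.68), Nefl (0.58), Nefh (0.38), Prph (0.35) and Nefm (0.13) lay above 0 without being called. The rest lay below 0, and the list median was -0.24. At 21 days none of the 12 was called in either direction, and the list median was 0.0018. The part of these cells in the result was not tested.

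In the Seltzer group Npy was higher than in sham at both early days, and Gal was called at 21 days. At 14 days Npy averaged 731 ± 105 in the Seltzer group and 35.5 ± 15 in sham (SD, n = 2 each), and at 21 days 1544 ± 804 in the Seltzer group and 15.1 ± 41.4 in sham (SD, n = 3 each). This was at least 3.09-fold at 14 days and at least 6.27-fold at 21 days. The log2 difference was 3.88 (SE 0.65; limma adjusted p = 0.0319) at 14 days and 5.67 (SE 0.53; limma adjusted p = 0.0003) at 21 days, or 1.56 and 2.57 with a floor at each array's background level. The 14-day call was lost when any single array of its 4 was left out (adjusted p = 0.0585 to 0.154), and the 21-day call with only the compared groups in the fit (adjusted p = 0.397).

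Gal averaged 719 ± 181 in the Seltzer group and 68.9 ± 48.1 in sham at 14 days (SD, n = 2 each), at least 3.01-fold, and 497 ± 50.6 in the Seltzer group and 42.9 ± 48.3 in sham at 21 days (SD, n = 3 each), at least 2.19-fold. At 14 days its log2 difference of 3.22 (SE 0.67) did not pass (limma adjusted p = 0.113), although both Seltzer arrays were above background and neither sham array was. At 21 days the difference was 3.39 (SE 0.55; limma adjusted p = 0.0197). With the floor at background these differences were 1.53 and 1.07. That call was lost without Seltzer replicate 1 (adjusted p = 0.0656) or Seltzer replicate 3 (adjusted p = 0.0617), and with a pseudocount of 1 (adjusted p = 0.178). Of all probe sets, 0.137% were called higher in the Seltzer group at 14 days and 0.263% at 21 days. The macrophage sum was 3158 to 4248 in the Seltzer group and 1891 to 2278 in sham at 14 days, and 2425 to 3076 in the Seltzer group and 1225 to 1726 in sham at 21 days. None of the 6 macrophage markers was called at 14 days, and only Cd74 at 21 days. The muscle sum was 5532 to 5748 in the Seltzer group and 3815 to 4474 in sham at 14 days, and 2505 to 3200 in the Seltzer group and 4136 to 4452 in sham at 21 days. The part of these cells in the result was not tested.

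At 50 days neither peptide was above background in either group. Npy averaged 216 ± 21.2 in the Seltzer group and 1.69 ± 30.1 in sham (SD, n = 2 each), with a log2 difference of 3.22 (SE 0.65; limma adjusted p = 0.00532). Gal averaged 185 ± 18.0 in the Seltzer group and 56.5 ± 40.9 in sham (SD, n = 2 each), with a log2 difference of 1.59 (SE 0.67; limma adjusted p = 0.131). Here 8.72% of all probe sets were called higher. With a floor of 200 the Npy difference was 0.10 (limma adjusted p = 1), and without sham replicate 1 its call was lost (adjusted p = 0.0581). The degraded actin control of the Seltzer 50-day arrays coincides with the group, so array quality and injury cannot be told apart at this time. The muscle sum was 2888 to 3866 in the Seltzer group and 653 to 923 in sham, with 3 of 5 muscle genes called higher. Called lower were 5 of 12 sensory neuron markers, beside 7.2% of all probe sets. The part of these cells in the result was not tested.

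**Figure D2:**
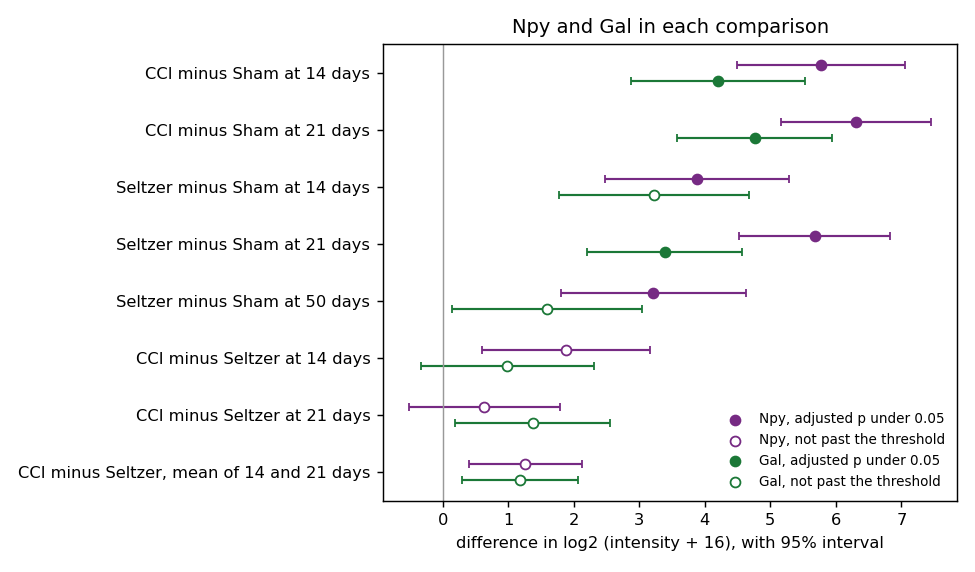
Log2 difference in intensity (floored at 0, plus 16) for Npy and Gal in each comparison of the surgeries, with 95% confidence intervals from the limma fit; filled points passed the threshold and open points did not. Both peptides lie highest in the comparisons of CCI with sham, and CCI minus Seltzer lies nearer to 0.

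The separation from sham held array by array. For both peptides every CCI and Seltzer array, at 14, 21 and 50 days, exceeded all 7 sham arrays. The lowest value among the 13 injured arrays was 201 for Npy and 172 for Gal, both from Seltzer 50 days, while the highest sham value was 61.4 for Npy and 103 for Gal. Day by day such separation was common: every CCI array was above every sham array in 18.1% of probe sets at 14 days and 6.57% at 21 days, and every Seltzer array in 17.9%, 4.97% and 33.4% at 14, 21 and 50 days. Over all days together 9 probe sets (0.103%) did so. The others, named after their values were seen, were Atf3, Ctss, Gap43, Mmp16, Ptpro, Reg3b and Vip, of which Mmp16, Reg3b and Vip were above background on no array.

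CCI and Seltzer ganglia were next set against each other. At 14 days Npy was 3.75-fold higher after CCI than in the Seltzer group, and the arrays did not overlap. The log2 difference was 1.89 (SE 0.59; 95% interval 0.60 to 3.17), which did not pass over all probe sets (limma adjusted p = 0.191), where 0.858% were called higher. At 21 days Npy was 1.56-fold higher after CCI, with overlapping arrays: Seltzer replicate 1, at 2467, exceeded 2 of the 3 CCI arrays. The log2 difference at that day was 0.63 (SE 0.53; 95% interval -0.51 to 1.78; limma adjusted p = 0.718), and 0.0229% of probe sets were called higher. It was 1.03 without Seltzer replicate 1, 0.38 without Seltzer replicate 3 and 1.10 without the replicate 1 arrays of 21 days, and none of these passed.

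Gal was 2.00-fold higher after CCI than in the Seltzer group at 14 days and 2.64-fold higher at 21 days, without overlap on either day. Its log2 difference was 0.98 (SE 0.61; 95% interval -0.34 to 2.31; limma adjusted p = 0.791) at 14 days and 1.37 (SE 0.55; 95% interval 0.19 to 2.55; limma adjusted p = 0.466) at 21 days. Every CCI array lay above every Seltzer array of the same day in 16.7% of probe sets at 14 days and 5.02% at 21 days, and on both days in 0.801%. With the days pooled, every CCI array exceeded every Seltzer array of 14 and 21 days in 0.366% of probe sets, Gal among them and Npy not.

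Averaged over both days, the CCI minus Seltzer difference was 1.26 for Npy (SE 0.40; 95% interval 0.40 to 2.12; limma adjusted p = 0.256) and 1.18 for Gal (SE 0.41; 95% interval 0.29 to 2.06; limma adjusted p = 0.327) on the log2 scale, and 0.481% of probe sets were called higher. Before adjustment over all probe sets the limma p was 0.00761 for Npy and 0.0134 for Gal. With only the CCI and Seltzer arrays of 14 and 21 days in the limma fit, without sham and Seltzer 50 days, the adjusted p was 0.0678 for Npy and 0.00173 for Gal. An exact two-sided permutation test on the CCI and Seltzer arrays alone, with labels exchanged within each day and chosen after the data were seen, gave p = 0.015 for Npy and p = 0.005 for Gal, the smallest its 200 arrangements allow; adjusted over the 2 peptides, these exact values were 0.015 and 0.01. With a floor of 200 both differences kept their size and passed in limma (adjusted p = 0.00346 for Npy and 2.31e-06 for Gal). That floor gave all sham arrays the same value, and the SE was 0.19 for Npy and 0.08 for Gal. The pass thus came with a smaller shared spread, not with a larger difference between the models. The permutation values are not adjusted over the 8740 probe sets, so they are not comparable with the limma adjusted p. The means were higher after CCI for both peptides at both days. The macrophage sum was 4043 to 4990 after CCI and 3158 to 4248 in the Seltzer group at 14 days, and 3444 to 4290 after CCI and 2425 to 3076 in the Seltzer group at 21 days. None of the 6 macrophage markers was called on either day or over both. The muscle sum was 8418 to 9768 after CCI and 5532 to 5748 in the Seltzer group at 14 days, with Acta1 called higher, and 873 to 1717 after CCI and 2505 to 3200 in the Seltzer group at 21 days, with Acta1 and Ckm called lower. The sum of 6 satellite glia markers was 5047 to 6875 after CCI and 3821 to 4166 in the Seltzer group at 14 days, and 8921 to 11631 after CCI and 5678 to 22606 in the Seltzer group at 21 days. Only Glul and Apoe among them were above background on more than 1 array, and none of the 6 was called. Of the 12 measured sensory neuron markers only Scn11a was called, lower after CCI at 14 days (log2 difference -1.02, limma adjusted p = 0.0331) and over both days (log2 difference -0.86, limma adjusted p = 0.0118). Among all 8740 probe sets, 153 were called in either direction at 14 days, 10 at 21 days and 81 over both. The part of these cells in the difference was not tested.

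**Figure D3:**
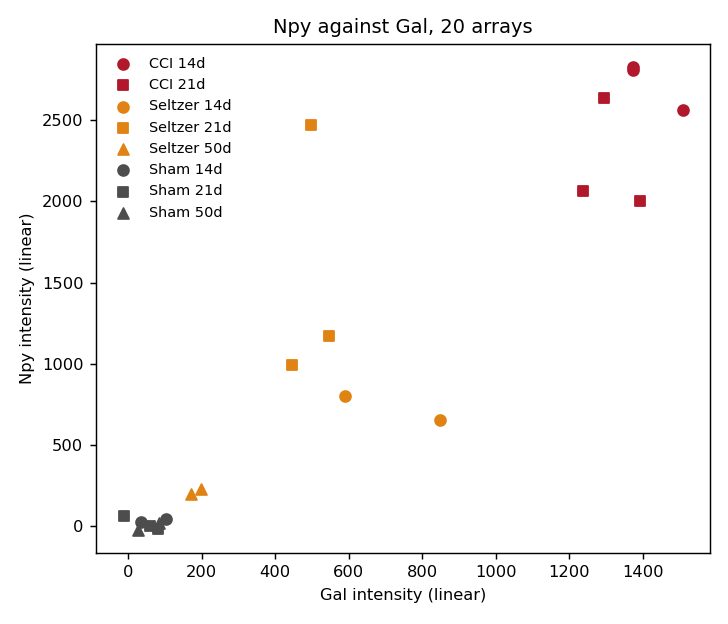
Npy intensity against Gal intensity on 20 arrays (both linear); colour gives the surgery and shape the day. CCI arrays lie at the upper right, Seltzer arrays of 14 and 21 days between them and sham, and Seltzer replicate 1 at 21 days has a Npy value of 2467 at a Gal value of 497.

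The proportion of the 2 peptides differed between arrays. The ratio of Npy to Gal intensity depends on how the 2 probe sets respond, so its level is not read and only differences between arrays are compared. It was 2.06, 1.70 and 2.05 on the CCI arrays at 14 days and 1.44, 2.04 and 1.67 at 21 days. On the Seltzer arrays it was 1.36 and 0.775 at 14 days and 4.96, 2.14 and 2.23 at 21 days. At 14 days every CCI ratio was above both Seltzer ratios, and at 21 days every CCI ratio was below all 3 Seltzer ratios. Sham and Seltzer 50-day arrays gave no ratio, since neither peptide was above background there.

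The mean ratio was 1.94 ± 0.20 after CCI (SD, n = 3) and 1.07 ± 0.41 in the Seltzer group (SD, n = 2) at 14 days, and 1.72 ± 0.30 after CCI and 3.11 ± 1.60 in the Seltzer group (SD, n = 3 each) at 21 days. The log2 ratio of CCI minus Seltzer was 0.90 at 14 days (exact permutation p = 0.1) and -0.74 at 21 days (exact permutation p = 0.1), the smallest values possible at these sizes. Averaged over both days it was 0.08 (exact permutation p = 0.8, two-sided), as the days opposed each other. The difference between the days, examined after the values were seen, was -1.64 (exact permutation p = 0.005, the smallest of 200 arrangements). Leaving out any one array kept it between -2.03 and -1.24 (exact permutation p = 0.01 to 0.0167), and without the 21-day replicate 1 arrays it was -1.13 (exact permutation p = 0.0167). Each of these p-values was the smallest its arrangements allow. The ratios of the models did not overlap on either day, so leaving out arrays could not raise p above that limit. With replicate number as a block it was -1.59 (exact permutation p = 0.0625, the smallest of 32 sign patterns). Tested singly, the difference between days was -1.25 for Npy (exact permutation p = 0.255) and 0.39 for Gal (exact permutation p = 0.665). Labels were exchanged within each day, so all these p-values refer to a null of no model difference on either day. They do not test whether the model difference was equal on both days.

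**Figure D4:**
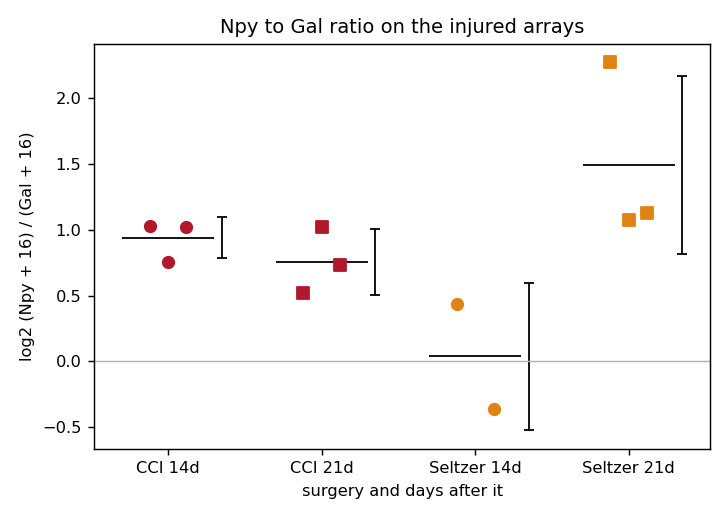
Ratio of Npy to Gal intensity on each CCI and Seltzer array at 14 and 21 days (log axis); points are arrays and bars the group mean with SD. The Seltzer arrays lie below the CCI arrays at 14 days and above them at 21 days.

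Whether arrays of a group that were high for one peptide were high for the other was examined next, and no relation passed. Over the 11 CCI and Seltzer arrays of 14 and 21 days, deviations from the group means had Pearson's r = -0.12 (exact permutation p = 0.836) and Spearman's rho = -0.25 (exact permutation p = 0.586), over 432 arrangements within groups. Without the 2 arrays whose Npy deviation lay farthest from the median deviation, r was -0.67, so the value rests on few arrays. No other relation across arrays was tested.

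Time courses within a model did not pass for either peptide. The CCI effect over sham changed by 0.54 for Npy (limma adjusted p = 0.873) and 0.56 for Gal (limma adjusted p = 0.874) on the log2 scale between 14 and 21 days. The Seltzer effect changed by 1.79 for Npy and 0.17 for Gal over the same interval (limma adjusted p = 1 for each). Between 21 and 50 days the Seltzer effect changed by -2.46 for Npy (limma adjusted p = 0.105) and -1.80 for Gal (limma adjusted p = 0.257). The Npy change passed without sham 21-day replicate 1 (-3.19, limma adjusted p = 0.00646). All 50-day values were below background. The ratio of the 3′ to the middle GAPDH control was 8.89 and 5.10 on the Seltzer and 2.84 and 2.85 on the sham 50-day arrays. It was at most 2.04 on the 14- and 21-day arrays, so array quality and time cannot be told apart here. The differences in sham were -0.84 for Npy and -0.67 for Gal at 21 minus 14 days and by -0.17 for Npy and 0.45 for Gal at 50 minus 21 days (limma adjusted p = 0.642, 0.756, 1 and 0.825 in that order), all between values below background. Over all probe sets 1.8% were called in either direction for the CCI effect at 21 minus 14 days, 0.149% and 7.41% for the Seltzer effect at 21 minus 14 and 50 minus 21 days, and 2.57% and 7.46% for sham over those intervals.

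The receptors gave little signal. Of 13 relatives and receptors listed, 8 were measured: the neuropeptide Y receptors Npy1r, Npy4r and Npy5r, the related peptides Pyy and Ppy, and the galanin receptors Galr1, Galr2 and Galr3. None was above background on any array except Pyy, at 492 on CCI 14-day replicate 3, against 123 and 84.3 on the other arrays of its group. By limma none was called in any comparison of CCI or Seltzer with sham at 14 or 21 days. At an unadjusted p under 0.05 there were 2 for CCI at 14 days, 0 for CCI at 21 days and for Seltzer at 14 days, and 1 for Seltzer at 21 days. Over all probe sets the share at that unadjusted threshold was 10.6% and 12.3% for CCI minus sham at 14 and 21 days, and 3.78% and 6.6% for Seltzer minus sham. At 50 days Npy1r was called higher in the Seltzer group, with mean intensities of 308 in the Seltzer group and 66.7 in sham (log2 difference 1.95, limma adjusted p = 0.0455), both below background. There 8.72% of all probe sets were called higher, and array quality and injury cannot be told apart.

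Few genes of peptide processing passed the test. Of 18 listed genes for precursor cleavage and secretory granules, 15 were measured, and the median log2 difference was -0.53 at 14 days and -0.16 at 21 days for CCI minus sham, and 0.04 and 0.03 for Seltzer minus sham at those days, beside a median of 0 over all probe sets. Vgf, a granule protein and peptide precursor induced by neurotrophins, averaged 870 after CCI and 288 in sham at 14 days (log2 difference 1.54, limma adjusted p = 0.00969) and 1050 after CCI and 368 in sham at 21 days (log2 difference 1.49, limma adjusted p = 0.0155). On those days 1.35% and 0.538% of all probe sets were called higher after CCI. In the Seltzer group Vgf averaged 825 against 288 in sham at 14 days and 720 against 368 in sham at 21 days, and did not pass (limma adjusted p = 0.153 and 0.194). Chgb, a granule matrix protein, fell after CCI at 14 days, with means of 381 after CCI and 857 in sham (log2 difference -1.14, limma adjusted p = 0.0404), when 1.43% of all probe sets were called lower. Scg5, the chaperone of prohormone convertase 2, fell in the Seltzer group at 21 days, with means of 488 in the Seltzer group and 881 in sham (log2 difference -0.86, limma adjusted p = 0.0367), when 0.114% were called lower.

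Pam, the enzyme that amidates both peptides, averaged 1016 after CCI and 883 in sham at 14 days, and 909 after CCI and 729 in sham at 21 days. In the Seltzer group it averaged 947 against 883 in sham at 14 days and 1018 against 729 in sham at 21 days. None of these differences passed, with log2 values of 0.10 to 0.47. Cpe, which trims the cleaved precursors, did not pass at 14 or 21 days either. At 50 days 5 of the 15 genes were lower in the Seltzer group, namely Pam, Cpe, Scg3, Scg5 and Cadps, beside 7.2% of all probe sets called lower there. Pam averaged 452 in the Seltzer group and 856 in sham at that time (log2 difference -1.03, limma adjusted p = 0.0362).

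Of 7 listed peptidases that cut released peptides, 5 were measured and none passed in limma at 14 or 21 days. At an unadjusted p under 0.05 there were 2 for CCI minus sham at 21 days (12.3% of all probe sets) and 0 in the other comparisons with sham at those days. At 50 days Mme (neprilysin), which was above background on no array, and Ace, the angiotensin-converting enzyme, were higher in the Seltzer group, as were 8.72% of all probe sets. Ace averaged 942 in the Seltzer group and 501 in sham (log2 difference 0.90, limma adjusted p = 0.00437).

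Among signals and factors known upstream of these peptides, 22 of 26 were measured, including the cytokine Lif and its relatives, neurotrophins and injury-induced transcription factors. Atf3, a transcription factor switched on in axotomised neurons, was the only one called at 14 or 21 days. It read 852, 727 and 876 after CCI at 14 days, 933, 817 and 865 after CCI at 21 days, 689 and 456 in the Seltzer group at 14 days, and 661, 508 and 540 at 21 days, against 104 to 183 on the 7 sham arrays. Its log2 difference was 2.28 for CCI minus sham on both days (limma adjusted p = 3.45e-06 and 5.92e-06) and 1.75 and 1.67 for Seltzer minus sham (limma adjusted p = 0.00133 and 0.0003). Of all probe sets, 1.35% and 0.538% were called higher for CCI minus sham at 14 and 21 days, and 0.137% and 0.263% for Seltzer minus sham. Unlike either peptide in the same fit, Atf3 passed for CCI minus Seltzer over both days (log2 difference 0.57, SE 0.11, limma adjusted p = 0.033), where 0.481% of all probe sets were called higher. A difference between genes was not tested. Lif was above background on no array. At 50 days Atf3, Fos and Cebpd were called higher and Ngfr and Rest lower in the Seltzer group, beside 8.72% of all probe sets called higher and 7.2% lower. Rest was above background on no array, and Atf3 on neither Seltzer 50-day array. The median log2 difference of the list was 0.12 and 0.10 for CCI minus sham at 14 and 21 days, and -0.03 and 0.37 for Seltzer minus sham at those days, beside a median of 0 over all probe sets.

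Npy and Gal followed each other across the 20 arrays with a Pearson's r of 0.91 on the log2 scale, as a description over arrays that share the injured and sham groups. Among 2345 probe sets above background on at least 3 arrays, the genes most like Npy were Atf3 (r = 0.97), Ctss (0.92), RT1-Da (0.84), Ptpro (0.84) and Cd74 (0.83). The protease cathepsin S (Ctss), the MHC class II chain RT1-Da and the invariant chain Cd74 are genes of antigen-presenting cells. Cd74 averaged 2088 after CCI and 646 in sham at 14 days, and 1185 after CCI and 310 in sham at 21 days. The genes most like Gal were Gap43 (r = 0.92), Atf3 (0.92), Camk2d (0.90), Vgf (0.89) and Ptpro (0.88). Gap43, a growth cone protein, averaged 2625 after CCI, 2693 in the Seltzer group and 1247 in sham at 14 days. For Gap43 the CCI minus Seltzer difference over both days was 0.06 on the log2 scale (limma adjusted p = 1), beside 1.18 for Gal and 1.26 for Npy.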

How the data were processed

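The deposited table holds intensities per probe set, linear and with negative values, for 20 arrays of rat dorsal root ganglion RNA. No source used here names the software or background step behind them. Negative intensities were raised to 0 and log2(intensity + 16) was analysed. limma 3.58.1 (R 4.3.3) was fitted over all 8 groups without a block, on 8740 probe sets (8799 less 59 array controls), with Benjamini-Hochberg adjustment and a threshold of 0.05. Single values were tested by exact permutation. The number of arrays limits the precision. No 2 arrays held identical values. The scripts were tested on simulated data.

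Probe sets were named from the platform's probe table; of 7006 with 1 symbol, 6985 were found in the current annotation, 308 had several symbols and 1426 none. Members and lists were chosen with earlier results of these data known. The genes named beside the peptides are the 5 most correlated with each and list members past the threshold, receptors or processing enzymes. Lists cover relatives and receptors, processing, peptidases, upstream signals and cell type markers. Where a gene had several probe sets, the one with the highest mean was used.

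Deviations from group means of same-numbered Seltzer and sham arrays at 21 days had correlations of 0.299, 0.226 and 0.11. Those of CCI and sham at 21 days had 0.061, 0.088 and 0.093, also all above 0. Those of CCI and Seltzer at 21 days had 0.019, 0.101 and -0.0053. Whether the number pairs arrays across groups was not tested, and the main fit has no block. Labels of some CCI arrays call the number a lot batch. Alternatives were other pseudocounts, floors, scalings, array weights, other arrays in the fit, the replicate block and leaving out each array.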

Additional observations from a re-analysis of the deposited data

Results flagged for a closer look

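The Npy to Gal ratio separated the injury models in opposite directions on the 2 days. The CCI minus Seltzer difference in log2 ratio at 21 days minus that at 14 days was -1.64 (exact permutation p = 0.005, two-sided, the smallest of 200 arrangements). It was noticed in these data and then tested on them. The null was no model difference on either day, not an equal difference on both days. All 3 CCI ratios were above both Seltzer ratios at 14 days, and all 3 were below the 3 Seltzer ratios at 21 days. Seltzer 21-day replicate 1 had the most extreme ratio, 4.96, and without it the value was -1.25 (exact permutation p = 0.01, again the smallest possible).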

How the results depend on the processing

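All values are log2 differences with limma adjusted p unless named otherwise. Npy for CCI minus sham at 14 days passed in all 18 alternatives run; at 21 days Npy for CCI minus sham and for Seltzer minus sham, and Gal for CCI minus sham, passed in 18 of 19 each, failing with only the compared groups in the fit, and Gal for CCI minus sham at 14 days passed in 17 of 18. Over these alternatives CCI minus sham ranged from 3.45 to 6.61 for Npy and 2.51 to 4.87 for Gal at 14 days, and from 3.20 to 8.59 for Npy and 2.44 to 6.26 for Gal at 21 days, and Seltzer minus sham at 21 days from 2.57 to 7.95 for Npy. The cause of the changes that follow was not tested, beyond the fewer arrays in some fits and the floors that merge values below background.

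With a pseudocount of 1, Gal for CCI minus sham at 14 days was 4.54 (adjusted p = 0.133), Npy for Seltzer minus sham at 14 days 4.38 (adjusted p = 0.995) and Gal for Seltzer minus sham at 21 days 4.87 (adjusted p = 0.178), all lost. With 64, Gal for Seltzer minus sham was 2.59 (adjusted p = 0.00494) at 14 days and 1.09 (adjusted p = 0.0443) at 50 days, CCI minus Seltzer was 1.82 for Npy at 14 days (adjusted p = 0.014) and 1.22 for Npy and 1.11 for Gal over both days (adjusted p = 0.021 each), and the Npy change in the Seltzer effect at 50 minus 21 days was -2.29 (adjusted p = 0.0121), all gained. Turned in sign with 64 were the changes at 21 minus 14 days of the CCI effect for Npy (-0.0032) and of the Seltzer effect for Gal (-0.17).

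With a floor of 200, Gal for Seltzer minus sham at 14 days was 1.75 (adjusted p = 8.22e-06). CCI minus Seltzer was 1.89 for Npy (adjusted p = 0.00207) and 0.98 for Gal (adjusted p = 0.000334) at 14 days, 1.37 for Gal at 21 days (adjusted p = 0.000142), and 1.26 for Npy (adjusted p = 0.00346) and 1.18 for Gal (adjusted p = 2.31e-06) over both days. The Seltzer effect at 50 minus 21 days was -2.63 for Npy (adjusted p = 0.000672) and -1.24 for Gal (adjusted p = 0.000244). Npy for Seltzer minus sham at 50 days was lost (0.10, adjusted p = 1). The changes at 21 minus 14 days turned to -0.30 for Npy and -0.12 for Gal in the CCI effect and to -0.50 for Gal in the Seltzer effect. Another 5 fits gave no value because every array was at that floor.

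With a floor at each array's background level, values at 50 days are only ratios of background levels. CCI minus Seltzer was 1.89 for Npy at 14 days (adjusted p = 3.2e-07), 1.37 for Gal at 21 days (adjusted p = 0.00102), and 1.26 for Npy (adjusted p = 7.13e-07) and 1.18 for Gal (adjusted p = 6.51e-06) over both days. Gal for Seltzer minus sham was 1.53 at 14 days (adjusted p = 0.00964), 1.07 at 21 days (adjusted p = 0.0568, lost) and 1.13 at 50 days (adjusted p = 0.000873). The Seltzer effect at 50 minus 21 days was -1.43 for Npy (adjusted p = 0.0309) and 0.061 for Gal (adjusted p = 0.894, turned). At 21 minus 14 days the CCI effect turned to -0.25 for Npy and -0.068 for Gal and the Seltzer effect to -0.45 for Gal, and Npy in sham at 50 minus 21 days turned to 0.38.

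With only the compared groups in the fit, calls were lost for CCI minus sham at 21 days (Npy 6.31, adjusted p = 0.11; Gal 4.76, adjusted p = 0.247) and for Seltzer minus sham at 14 days (Npy 3.88, adjusted p = 0.252), 21 days (Npy 5.67, adjusted p = 0.397; Gal 3.39, adjusted p = 0.654) and 50 days (Npy 3.22, adjusted p = 0.105), and gained for CCI minus Seltzer for Npy at 14 days (1.89, adjusted p = 0.0147) and Gal over both days (1.18, adjusted p = 0.00173). In the exact permutation test over both days, CCI minus Seltzer was 1.26 for Npy (exact p = 0.015) and 1.18 for Gal (exact p = 0.005).

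With array weights, Gal for Seltzer minus sham at 14 days was 3.22 (adjusted p = 0.00342), CCI minus Seltzer for Npy 1.88 at 14 days (adjusted p = 0.00244) and 1.38 over both days (adjusted p = 0.011), Npy in the Seltzer effect at 50 minus 21 days -2.86 (adjusted p = 0.0132) and Npy in sham at 21 minus 14 days -1.45 (adjusted p = 0.0452). Turned were the CCI effect (-0.15) and Seltzer effect (-0.45) of Gal at 21 minus 14 days, and sham at 50 minus 21 days for Npy (0.43) and Gal (-0.21). Without the 21-day replicate 1 arrays, a choice made after seeing the data, CCI minus Seltzer over both days was 1.49 for Npy (adjusted p = 0.008), the Seltzer effect at 50 minus 21 days -2.79 for Npy (adjusted p = 0.00547) and sham at 21 minus 14 days -1.57 for Npy (adjusted p = 0.0329). Turned for Gal were the CCI effect (-0.30) and Seltzer effect (-0.64) at 21 minus 14 days, sham at 21 minus 14 days (0.13) and sham at 50 minus 21 days (-0.36), and for Npy sham at 50 minus 21 days (0.56).

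With the 21-day sham arrays as control at 14 days, Gal for Seltzer minus sham at 14 days was 3.89 (adjusted p = 0.00277), and the changes at 21 minus 14 days turned for the CCI effect (Npy -0.30, Gal -0.12) and for the Seltzer effect of Gal (-0.50). With arrays scaled to one median, Npy for Seltzer minus sham at 14 days was 3.94 (adjusted p = 0.0519). After quantile normalization the Seltzer effect at 50 minus 21 days was -3.02 for Npy (adjusted p = 0.0482). The replicate block changed no limma call of either peptide (for Seltzer minus sham at 21 days, Npy 5.67, adjusted p = 0.000966, and Gal 3.39, adjusted p = 0.0389); the days' difference in log2 ratio was -1.59 with the block (exact p = 0.0625, the smallest possible).

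Leaving out each array in turn, the Seltzer minus sham difference ranged over 3.58 to 4.18 for Npy at 14 days (lost each time), 2.58 to 3.88 for Gal at 21 days (lost without Seltzer replicate 1 or 3) and 2.57 to 3.86 for Npy at 50 days (lost without sham replicate 1), and the Npy Seltzer effect at 50 minus 21 days over -3.19 to -1.82 (gained without sham 21-day replicate 1). Results far from the threshold that changed sign were, for Gal, the CCI effect (-0.25 to 1.17) and Seltzer effect (-0.64 to 0.78) at 21 minus 14 days, sham at 21 minus 14 days (-1.28 to 0.13) and sham at 50 minus 21 days (-0.36 to 1.06), and for Npy sham at 50 minus 21 days (-0.82 to 0.56). The mean difference in log2 ratio ranged over -0.12 to 0.28 and the correlation of deviations over -0.48 to 0.069. Counts of called probe sets moved by more than 1.5 times in every comparison: over all alternatives CCI minus sham gave 58 to 784 at 14 days (243 as reported) and 13 to 136 at 21 days (81), Seltzer minus sham 0 to 269 at 14 days (18), 0 to 56 at 21 days (33) and 660 to 8054 at 50 days (1391), and CCI minus Seltzer 90 to 797 (153), 0 to 53 (10) and 50 to 309 (81) at 14 days, 21 days and over both. Sham signal below background limits the folds over sham at 14 and 21 days to lower bounds and leaves none at 50 days.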
